A study of Mus musculus with 17 samples.

Results

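The 7 CDK inhibitor genes Cdkn1a, Cdkn1b, Cdkn1c, Cdkn2a, Cdkn2b, Cdkn2c and Cdkn2d and the 3 D-type cyclin genes Ccnd1, Ccnd2 and Ccnd3 were followed through 17 RNA-seq libraries of skin stem cells from wild-type mice. They were chosen by name and are 10 of the 35674 genes in each of 3 tables of TPM values, the abundance of a gene's transcripts corrected for their length and scaled to a total of 1000000 in each library. Hair follicle stem cells (HFSCs), which lie in the bulge of the follicle, were sorted from mice fed ad libitum (3 libraries), fasted for 24 h (3 libraries) or fasted for 48 h (3 libraries), and epidermal stem cells (EpiSCs), which renew the epidermis between follicles, from mice fed ad libitum (2 libraries). A long-term experiment had 2 HFSC libraries after 6 months of alternate-day fasting, taken on the day following a fast, and 2 after 6 months of ad libitum feeding, and 2 further control HFSC libraries came from the 2nd telogen, a resting phase of the hair cycle. For the alternate-day libraries the sample titles say fasting while the treatment field says ad libitum, and the titles were followed. The labels give no age, sex or sort markers, no hair cycle stage for the other groups, and do not say whether libraries of a group came from different mice, and all p-values therefore rest on the spread among libraries, which may be technical.

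Progress from G1 into S phase is driven by the D-type cyclins, which bind CDK4 and CDK6 and start the phosphorylation of the RB proteins that frees E2F transcription factors. The INK4 inhibitors (p16, p15, p18 and p19, from Cdkn2a, Cdkn2b, Cdkn2c and Cdkn2d) bind CDK4 and CDK6 themselves, and the CIP/KIP inhibitors (p21, p27 and p57, from Cdkn1a, Cdkn1b and Cdkn1c) bind cyclin-CDK complexes, chiefly those with CDK2. HFSCs spend most of the hair cycle in quiescence, and p21 and p57 are among the inhibitors studied in them.

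The libraries differed in ways that bear on every level below. The 13 protein-coding genes of the mitochondrial genome held a mean share of the total of 30.7% ± 4.56 (SD, n = 3) for the ad libitum HFSC libraries, 27.5% ± 8.73 for those fasted 24 h and 10.02% ± 2.88 for those fasted 48 h, and between 2.84% and 4.1% in every EpiSC, long-term and telogen library. The median log2 fold change of all tested genes was off 0 at 48 h (0.42), between 48 h and 24 h (0.47) and between EpiSCs and HFSCs (0.50), so the called changes of members are also given after median-ratio scaling, which divides each library by the median ratio of its genes to their means. All 9 HFSC markers examined reached 1 TPM in ad libitum HFSCs. The bulge marker Cd34 had a mean of 516 TPM there and 0.303 TPM in EpiSCs, where Lgr5 was listed at 0. Krt15 was at 38033 and 34153 TPM and Itga6 at 27.6 and 326 TPM in the same groups. The 9 markers summed to 39006 to 42803 TPM ad libitum, 20496 to 33285 TPM at 24 h and 23685 to 33853 TPM at 48 h. Most of each sum was Krt15 (means of 38033, 24199 and 27900 TPM). At 24 h only Tcf7l2 and Itga6 had higher means than ad libitum. At 48 h the means of Krt15, Lhx2 and Postn were lower and those of the other HFSC markers higher. The part of these markers in the members' changes was not tested. The ad libitum columns in the telogen table are libraries 2 and 3 of the ad libitum group, deposited a second time, and were not counted again. Their headings there carry the prefix ana1, whose meaning is not given, and how the hair cycle stage of these ad libitum libraries compares with the 2nd telogen is not known. The ad libitum and telogen libraries also differ in the read processing tool named (fastp and Trimmomatic). The mitochondrial share was 25.4% and 32.7% in ad libitum libraries 2 and 3 and 3.5% and 3.42% in the telogen libraries. In the telogen comparison these differences and any difference in hair cycle stage cannot be told apart. Because these are sorted bulk samples, fewer cells of a type and less RNA per cell cannot be told apart.

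Tests used limma on log2(TPM + 1), with p-values adjusted over all genes tested in a comparison, and a gene was called at an adjusted p under 0.05. In every comparison 9 of the 10 members passed the filter of a mean of 1 TPM, and Cdkn2a did not. After 24 h of fasting 1 of 9 members was called, Cdkn1a, beside 3.07% of all genes (1.47% were higher). After 48 h 6 of 9 were called, beside 15.3% of all genes, with 5 inhibitors higher (13.3% of all genes were higher) and Ccnd1 lower (1.98% of all genes were lower). After median-ratio scaling 3 of 9 were called at 48 h, beside 10.3% of all genes, Cdkn1a higher (background 5.42%) and Ccnd1 and Ccnd2 lower (background 4.9%). Between EpiSCs and HFSCs 7 of 9 were called, beside 40.6% of all genes, 5 higher (background 31.5%) and 2 lower (background 9.1%), and 5 after scaling (background 32.3%), 2 higher (17.7%) and 3 lower (14.7%). In the 2nd telogen against ad libitum HFSCs 2 of 9 were called, beside 6.1% of all genes, both higher (background 5.01%). No member was called between 48 h and 24 h (background 0.0434%) or under long-term alternate-day fasting (background 0.00822%), where limma gave 5 members each at an unadjusted p under 0.05, as it did 21.3% and 14.1% of all genes. Members whose groups did not overlap numbered 2 higher and 2 lower at 24 h (7.77% and 10.1% of all genes), 6 and 1 at 48 h (35.5% and 7.07%), and 4 and 0 between 48 h and 24 h (25.3% and 1.25%). They numbered 6 and 2 between EpiSCs and HFSCs (50.5% and 16.2%), 3 and 3 in the long-term comparison (29.6% and 21%), and 4 and 1 in telogen (24.4% and 19.8%). The 24 h, 48 h, EpiSC and telogen comparisons share ad libitum libraries, so their changes are set side by side and not correlated.

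**Figure D1:**
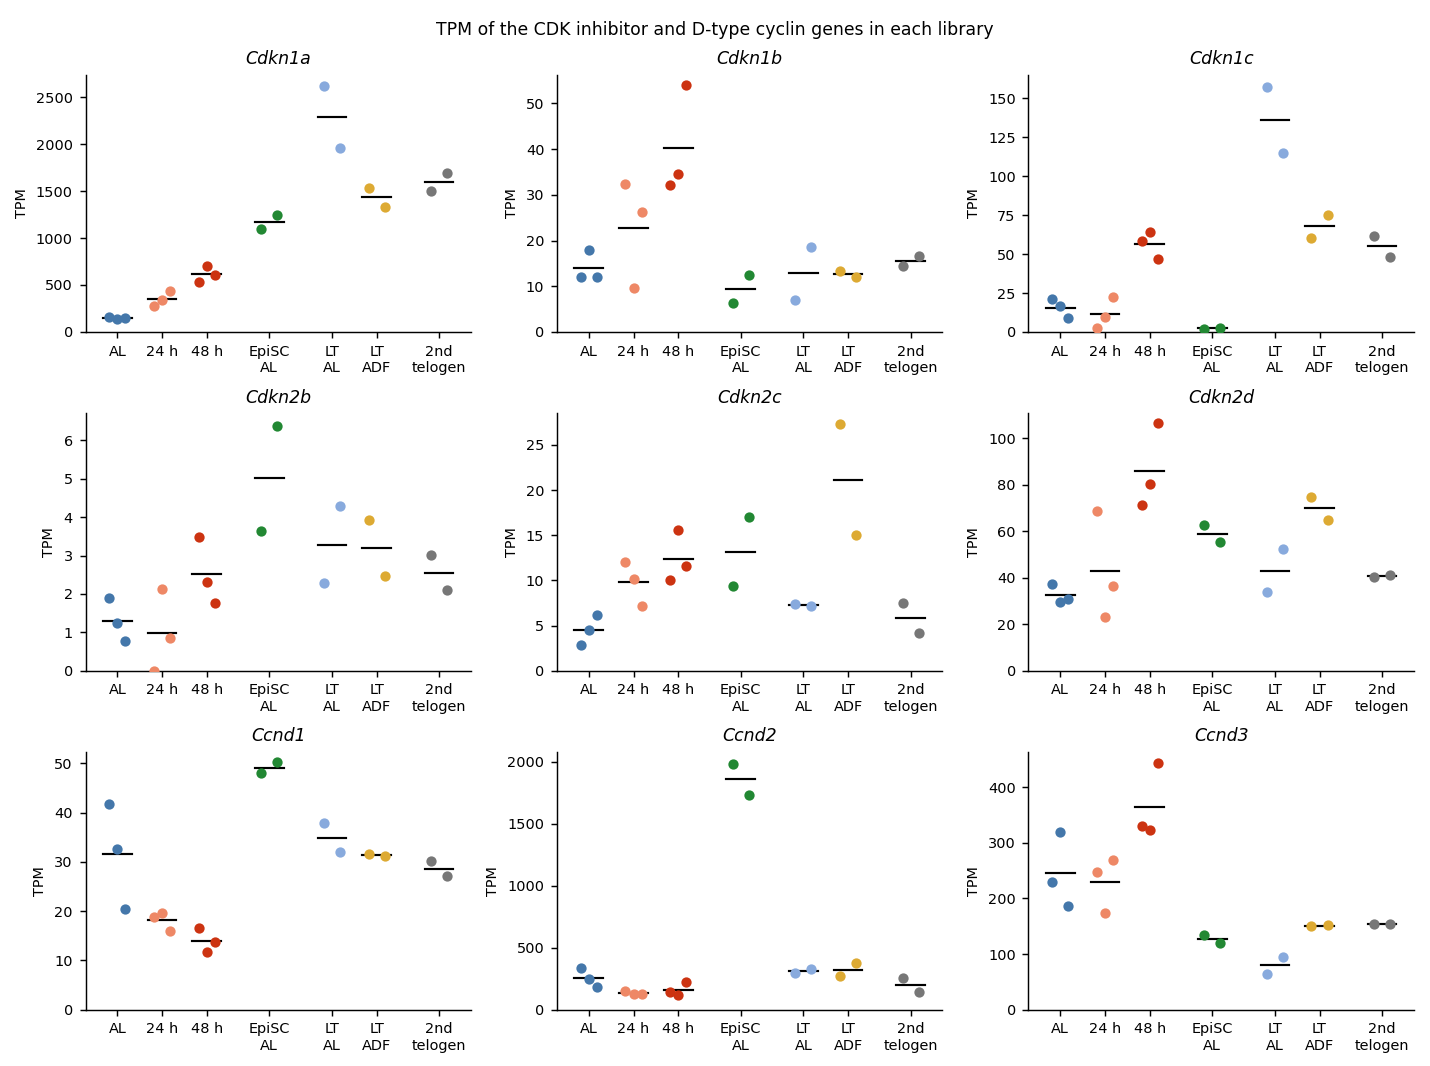
TPM (linear axes from 0) of the 9 members above 0 in each of the 17 libraries, 1 point per library and a bar at the group mean. AL is ad libitum, LT long-term and ADF alternate-day fasting, the first 3 groups and both LT groups are HFSCs, and the gaps on the horizontal axis part the experiments. Cdkn1a rises from 137 TPM in the lowest ad libitum library to 702 TPM in the highest 48 h library, and EpiSCs stand apart for Ccnd2.

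Cdkn1a encodes p21, a target of p53 and of many growth and stress signals, and it was the member with the widest range. It was at 159.9, 137 and 145 TPM in the 3 ad libitum HFSC libraries, at 278, 340.4 and 440.4 TPM after 24 h of fasting and at 529, 702 and 604 TPM after 48 h. The 3 groups did not overlap, and the order ad libitum, 24 h, 48 h held for every library. The means were 2.4-fold and 4.16-fold the ad libitum mean, and the log2 fold changes were 1.23 (SE 0.22, adjusted p = 0.00759) and 2.04 (SE 0.22, adjusted p = 4.54e-05). Scaling left the 24 h change at 1.23 and lowered the 48 h change to 1.57 (adjusted p = 0.00211). Both calls held without any 1 library. With no filter on low values the 24 h call was lost (adjusted p = 0.0523). The step from 24 h to 48 h, 0.81 (95% interval 0.34 to 1.27), did not pass the test (adjusted p = 0.13), fell to 0.33 after scaling, and passed without 24 h library 3 (0.98, adjusted p = 0.0392).

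Outside the short fasting experiment Cdkn1a was higher still. EpiSCs had 1095 and 1243 TPM, a log2 difference of 2.98 from ad libitum HFSCs (SE 0.149, adjusted p = 6.51e-06; 2.49 after scaling), and the 2nd telogen libraries had 1503 and 1695 TPM, 3.49 above ad libitum HFSCs (SE 0.285, adjusted p = 1.7e-09; 3.51 after scaling). The telogen call was lost with no filter on low values (adjusted p = 0.0585). In the long-term experiment the ad libitum libraries had 2617 and 1960.4 TPM and the alternate-day fasting libraries 1538 and 1334 TPM. The fasted libraries were the lower ones without overlap, a log2 difference of -0.66 (95% interval -1.25 to -0.07, adjusted p = 0.329) that did not pass the test. Levels across tables are a description, and of the 6 steps between neighbours in the order of the 7 group means, 5 exceeded the sum of the neighbours' SDs, the exception being telogen and long-term alternate-day fasting. The group means were also lower in ad libitum, 24 h and 48 h HFSCs, where the mean mitochondrial share was higher than in the other groups. Among those other groups the higher mean went with the higher share, from 1169 TPM at 3.22% in EpiSCs to 2288 TPM at 3.88% in long-term ad libitum HFSCs. The part of that share in the differences between experiments was not tested.

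The Cdkn1a promoters are shown because its transcript changed most consistently with fasting time. RefSeq (GRCm38.p6) gives 2 starts, both on the + strand, and each window runs 5′ to 3′ from 250 bases before to 50 bases after the start. Motifs were searched on both strands with overlaps allowed, and capitals mark matches. In the window of start 1, chr17:29090729-29091028, the capitals are 1 match to CATG, 6 bases of any kind and CATG, the cores of a pair of adjacent p53 half-sites, beginning 48 bases before the start, and TATAA on the opposite strand, read as TTATA.

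Cdkn1a start 1: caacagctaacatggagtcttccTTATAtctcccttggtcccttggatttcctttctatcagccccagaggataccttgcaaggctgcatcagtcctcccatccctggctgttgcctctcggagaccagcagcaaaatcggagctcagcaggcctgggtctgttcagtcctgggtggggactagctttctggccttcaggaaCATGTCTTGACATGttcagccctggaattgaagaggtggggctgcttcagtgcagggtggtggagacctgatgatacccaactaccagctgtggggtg

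In the window of start 2, chr17:29093519-29093818, the capitals are 2 GC boxes (GGGCGG) and TATAA, the latter beginning 25 bases before the start.

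Cdkn1a start 2: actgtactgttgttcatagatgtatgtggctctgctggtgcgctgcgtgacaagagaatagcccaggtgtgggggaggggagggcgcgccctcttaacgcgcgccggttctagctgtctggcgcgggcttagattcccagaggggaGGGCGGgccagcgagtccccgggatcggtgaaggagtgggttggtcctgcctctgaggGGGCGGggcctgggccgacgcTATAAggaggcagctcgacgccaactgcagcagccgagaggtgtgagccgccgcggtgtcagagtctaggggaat

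Of 32841 mouse promoter windows of this length, 0.713% hold the pair of p53 cores, 35.7% GGGCGG and 24.9% TATAA. Neither window holds the glucocorticoid response element (AGAACA, 3 bases of any kind and TGTTCT), found in 0.00913% of windows, or the FOXO core GTAAACA, found in 3.65%. The matches describe these letters only. The gene lies at chr17:29090976-29100727 in GENCODE on GRCm38, and an unspliced model of unknown function, AC167363.2, overlaps it on the opposite strand. The strand setting of the authors' counting is not given in the sources used here.

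Cdkn1b encodes p27, which restrains cyclin E and CDK2 in quiescent cells and whose amount is set largely by protein turnover. It was at 11.9, 17.9 and 12.1 TPM in ad libitum HFSCs, at 32.4, 9.6 and 26.3 TPM after 24 h, and at 32.1, 34.5 and 53.9 TPM after 48 h. The 48 h libraries all lay above the ad libitum ones, while library 2 of the 24 h group lay below them. The 48 h log2 fold change was 1.44 (SE 0.405, adjusted p = 0.0268), and after scaling it was 0.99 (adjusted p = 0.0615). Leaving out ad libitum library 1 or 3 or 48 h library 2 or 3 also took the adjusted p to between 0.0669 and 0.129. EpiSCs had 6.33 and 12.4 TPM, -0.57 from HFSCs (adjusted p = 0.257), a difference that was called only after scaling (-1.02, adjusted p = 0.0416). The alternate-day libraries (13.3 and 12.1 TPM) lay inside the range of the long-term ad libitum ones (7.09 and 18.7 TPM), and telogen libraries had 14.4 and 16.6 TPM. None of the 6 steps between neighbouring group means exceeded the sum of their SDs. The window of its 1 RefSeq start, chr6:134920151-134920450 on the + strand, is shown for comparison with Cdkn1a, and the capitals are 1 GC box and 3 CCAAT boxes, 1 of them on the opposite strand as ATTGG.

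Cdkn1b: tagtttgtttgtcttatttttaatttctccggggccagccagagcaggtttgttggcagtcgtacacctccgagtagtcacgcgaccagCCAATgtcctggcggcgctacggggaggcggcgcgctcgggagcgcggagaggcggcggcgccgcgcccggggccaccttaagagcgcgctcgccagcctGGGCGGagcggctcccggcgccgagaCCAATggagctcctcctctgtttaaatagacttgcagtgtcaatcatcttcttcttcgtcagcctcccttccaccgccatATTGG

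CCAAT is found in 37.4% of windows.

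Cdkn1c encodes p57, an imprinted inhibitor linked to stem cell quiescence and tissue differentiation, and it varied most between the groups in relation to its level. It was at 21.4, 16.7 and 8.95 TPM in ad libitum HFSCs and at 2.5, 9.44 and 22.4 TPM after 24 h, groups that overlapped widely. After 48 h it was at 58.6, 64 and 46.9 TPM, above every other library of the short HFSC experiment. The 48 h change was 1.85 (SE 0.528, adjusted p = 0.0289), and 1.39 after scaling (adjusted p = 0.127). The call was also lost without ad libitum library 1 (adjusted p = 0.0502) or 3 (0.125), or 48 h library 1 (0.0756), 2 (0.0986) or 3 (0.0638). Against 24 h the 48 h libraries were higher by 2.59 (95% interval 1.47 to 3.71, adjusted p = 0.0677), which passed without 24 h library 1 (1.87, adjusted p = 0.048) or 3 (3.24, adjusted p = 0.00817) and not after scaling (2.13, adjusted p = 0.364). No gene was called in that scaled comparison.

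EpiSCs had 1.59 and 2.84 TPM of Cdkn1c, below every HFSC library except 24 h library 1. The log2 difference from ad libitum HFSCs was -2.32 (SE 0.447, adjusted p = 0.0046; -2.70 after scaling), and without EpiSC library 1 it was -2.04 (adjusted p = 0.0974). Telogen libraries had 61.7 and 48.1 TPM, higher than the ad libitum libraries by 2.07 (SE 0.45, adjusted p = 0.00344; 2.08 after scaling), a call that ended without ad libitum library 3 (1.65, adjusted p = 0.138) or either telogen library (1.89 and 2.24, adjusted p = 0.228 and 0.193). The long-term ad libitum libraries had the most, 158 and 115 TPM, and the alternate-day libraries 60.5 and 75.1 TPM. The fasted libraries lay below without overlap, but the change of -0.98 (95% interval -1.58 to -0.39) did not pass the test (adjusted p = 0.258). An antisense model, Gm44732, overlaps Cdkn1c on the opposite strand.

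Cdkn2a, which encodes p16 and, from another reading frame, the p53 activator p19ARF, was listed at 0 in all 17 libraries, so nothing is said of its change. Cdkn2b, its neighbour on chromosome 4, encodes p15, an inhibitor induced by TGF-beta. It was at 1.89, 1.25 and 0.77 TPM in ad libitum HFSCs, at 0, 2.12 and 0.86 TPM after 24 h and at 3.48, 2.3 and 1.77 TPM after 48 h. The fasted groups overlapped the ad libitum one, and neither change passed the test (-0.33, adjusted p = 0.812, and 0.61, adjusted p = 0.436). The change of -0.33 turned to 0.09 without 24 h library 1, whose value was 0. EpiSCs had 3.64 and 6.38 TPM, the highest mean of the 7 groups, 1.37 above HFSCs (SE 0.426, adjusted p = 0.033). That call ended after scaling (1.02, adjusted p = 0.101) and without ad libitum library 3 (adjusted p = 0.0745) or EpiSC library 1 or 2 (adjusted p = 0.103 and 0.277). Long-term and telogen libraries lay between 2.11 and 4.29 TPM.

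Cdkn2c, encoding p18, an INK4 protein that limits self-renewal in blood stem cells, was at 2.88, 4.53 and 6.16 TPM in ad libitum HFSCs, at 12, 10.1 and 7.12 TPM after 24 h and at 10.04, 15.6 and 11.6 TPM after 48 h. All 6 fasted libraries lay above the 3 ad libitum ones. The 24 h change was 0.98 (adjusted p = 0.215) and the 48 h change 1.30 (SE 0.402, adjusted p = 0.0395), called at 48 h only before scaling (0.88 after, adjusted p = 0.158). Without any 1 of the 6 ad libitum and 48 h libraries the 48 h call was lost, at adjusted p of 0.0555 to 0.166. EpiSCs had 9.38 and 17 TPM, 1.35 above HFSCs (SE 0.43, adjusted p = 0.0361; after scaling 0.92, adjusted p = 0.111), which did not pass without ad libitum library 1 (adjusted p = 0.0685) or EpiSC library 1 or 2 (0.119 and 0.345). In the long-term experiment Cdkn2c went the other way from Cdkn1a and Cdkn1c, with 27.3 and 15.03 TPM under alternate-day fasting against 7.35 and 7.16 TPM. The groups did not overlap, and the difference of 1.37 (95% interval 0.44 to 2.29) did not pass the test (adjusted p = 0.268). Telogen libraries had 7.48 and 4.23 TPM.

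Cdkn2d, encoding p19-INK4d, was the most abundant INK4 transcript in all 7 group means. It was at 37.2, 29.7 and 30.9 TPM in ad libitum HFSCs, at 68.9, 23 and 36.7 TPM after 24 h and at 71.4, 80.1 and 106 TPM after 48 h. The 48 h libraries lay above the other 6, and the 24 h group spanned the ad libitum one. The 48 h change was 1.36 (SE 0.339, adjusted p = 0.0147) and 0.89 after scaling (adjusted p = 0.0711), and it was not called without ad libitum library 3 (adjusted p = 0.0559) or 48 h library 2 (0.0501) or 3 (0.0771). At 24 h the change was 0.25 (adjusted p = 0.773) and turned to -0.15 without 24 h library 1. The step from 24 h to 48 h, 1.11 (adjusted p = 0.138), passed only without that same library (1.51, adjusted p = 0.0413).

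EpiSCs had 62.6 and 55.2 TPM of Cdkn2d, 0.84 above HFSCs (SE 0.222, adjusted p = 0.018), and 0.36 after scaling (adjusted p = 0.317). That call was also lost without EpiSC library 1 (adjusted p = 0.172) or 2 (0.122). The alternate-day libraries (74.9 and 64.9 TPM) lay above the long-term ad libitum ones (33.8 and 52.4 TPM), by 0.71 (adjusted p = 0.34), and telogen libraries had 40.1 and 41.03 TPM. The window of its RefSeq start, chr9:21291160-21291459 on the - strand, is shown as that of an inhibitor that rose at 48 h with a promoter unlike Cdkn1a start 1. The capitals are 5 GC boxes, 1 of them on the opposite strand as CCGCCC, and 1 CCAAT box as ATTGG.

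Cdkn2d: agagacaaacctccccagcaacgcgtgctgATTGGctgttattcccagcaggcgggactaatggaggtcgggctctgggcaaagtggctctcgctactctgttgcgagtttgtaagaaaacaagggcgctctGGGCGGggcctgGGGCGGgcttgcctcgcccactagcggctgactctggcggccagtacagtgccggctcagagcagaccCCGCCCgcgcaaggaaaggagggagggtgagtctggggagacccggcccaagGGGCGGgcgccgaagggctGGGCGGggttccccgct

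**Figure D2:**
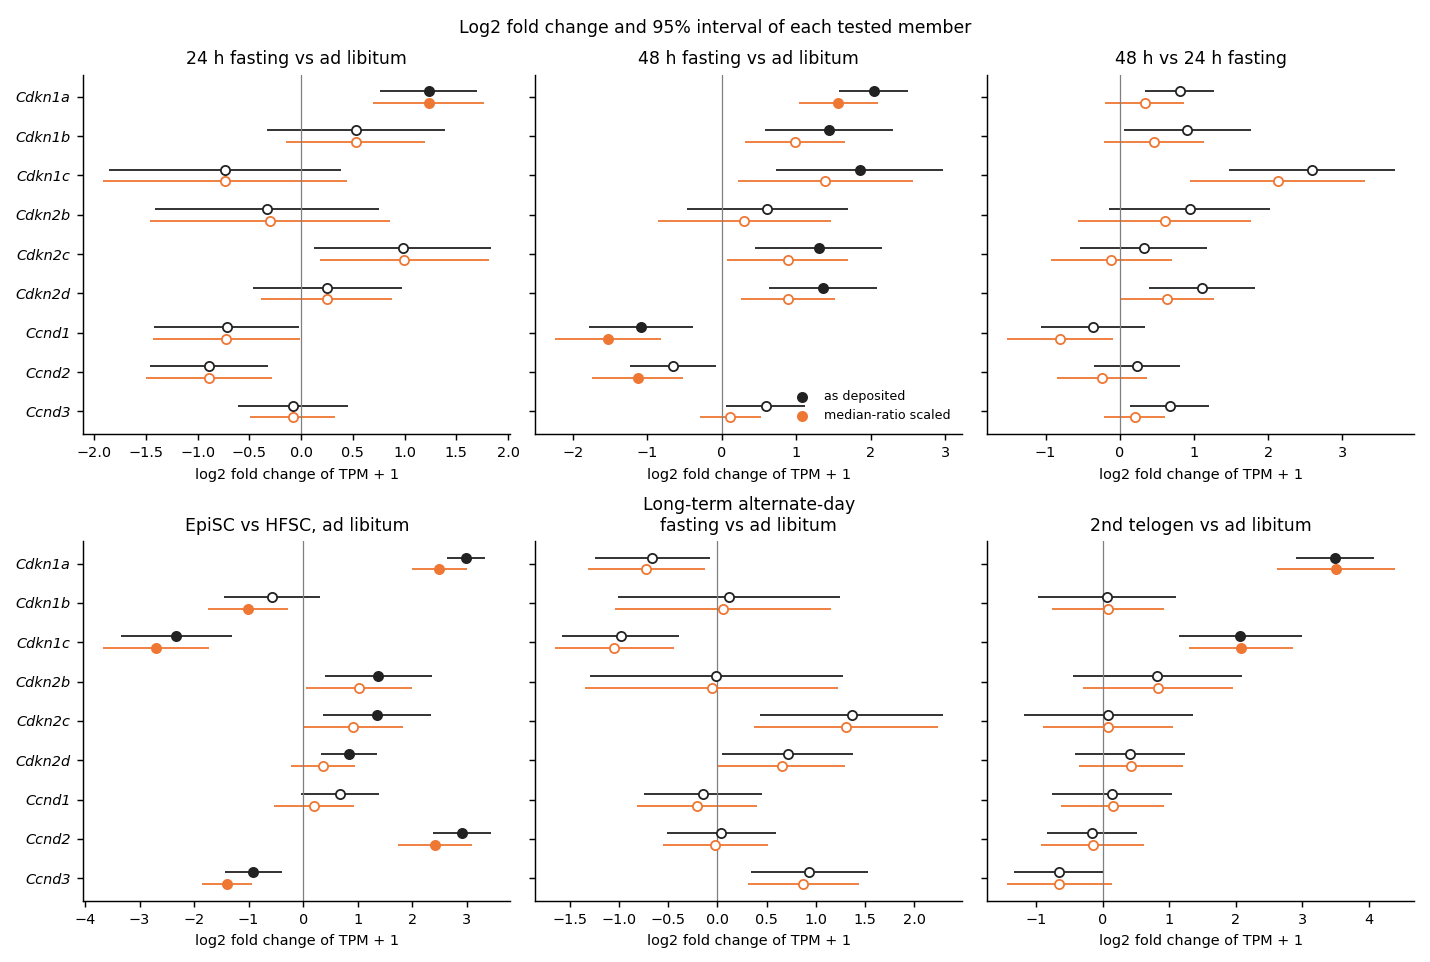
Log2 fold change of TPM + 1 (horizontal axis) of the 9 tested members in the 6 comparisons, with limma's 95% intervals, on the deposited values (black) and after median-ratio scaling (orange). Filled points are called at an adjusted p under 0.05. Cdkn1a is filled on both scales in 4 comparisons, whereas 4 inhibitors filled in black at 48 h are open after scaling.

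Ccnd1 encodes cyclin D1, a target of growth factor and WNT signalling and the least abundant of the 3 D-type cyclin transcripts in every library. It was at 41.8, 32.7 and 20.5 TPM in ad libitum HFSCs, at 18.8, 19.6 and 16.01 TPM after 24 h and at 16.5, 11.7 and 13.6 TPM after 48 h. All 6 fasted libraries lay below the ad libitum ones, the highest of them only just below ad libitum library 3. The 24 h change was -0.72 (95% interval -1.42 to -0.02, adjusted p = 0.278) and the 48 h change -1.09 (SE 0.33, adjusted p = 0.0374), or -1.53 after scaling (adjusted p = 0.0109). On the deposited scale the 48 h call was lost without ad libitum library 1 (-0.86, adjusted p = 0.175) or 2 (0.0747), or 48 h library 1 (0.0653), 2 (0.141) or 3 (0.113). The gene's 3′ end overlaps that of LTO1 on the opposite strand, whose mean was 14 TPM in ad libitum HFSCs and 19.8 TPM at 48 h.

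EpiSCs had 48 and 50.3 TPM of Ccnd1, the highest group mean, 0.67 above HFSCs (adjusted p = 0.114; 0.19 after scaling), which passed without ad libitum library 1 (0.90, adjusted p = 0.0481). The alternate-day libraries (31.6 and 31.2 TPM) and the long-term ad libitum ones (38 and 31.9 TPM) differed by -0.14 (95% interval -0.74 to 0.46, adjusted p = 0.797), and telogen libraries had 30.1 and 27.1 TPM.

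Ccnd2 encodes cyclin D2, a MYC target, and it marked the difference between the cell types. EpiSCs had 1985 and 1734 TPM against 335, 245 and 184 TPM in ad libitum HFSCs, a mean 7.31-fold that of HFSCs and a log2 difference of 2.90 (SE 0.234, adjusted p = 6.72e-05; 2.41 after scaling). It was called without any 1 of the 5 libraries. After fasting Ccnd2 was at 150.4, 127 and 123 TPM at 24 h and at 144, 119 and 221 TPM at 48 h. The 24 h libraries all lay below the ad libitum ones, while 48 h library 3 lay inside their range. The changes of -0.89 (95% interval -1.46 to -0.32, adjusted p = 0.0933) and -0.66 (adjusted p = 0.111) did not pass the test, and after scaling the 48 h change was called (-1.13, adjusted p = 0.0229). Long-term libraries had 269 and 377 TPM under alternate-day fasting and 294 and 326 TPM ad libitum, a difference of 0.04 (95% interval -0.51 to 0.60). Telogen libraries had 259 and 139 TPM.

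Ccnd3 encodes cyclin D3, and it did not move with the other D-type cyclins. It was at 230.1, 319.9 and 186 TPM in ad libitum HFSCs, at 247, 175 and 269 TPM after 24 h and at 329, 323 and 444 TPM after 48 h. The 48 h libraries lay just above the ad libitum range. Neither change passed the test (-0.08, adjusted p = 0.918, and 0.59, adjusted p = 0.121), and after scaling the 48 h change was 0.12. The 24 h change turned to 0.13 without ad libitum library 2. EpiSCs had 134 and 119.9 TPM, lower than HFSCs by a log2 difference of -0.91 (SE 0.231, adjusted p = 0.015; -1.40 after scaling), not called without EpiSC library 1 (adjusted p = 0.117) or 2 (0.147). In the long-term experiment Ccnd3 was at 149.7 and 152 TPM under alternate-day fasting against 64.4 and 95.4 TPM ad libitum, without overlap, and the difference of 0.94 (95% interval 0.34 to 1.53) did not pass the test (adjusted p = 0.261). Telogen libraries had 153 and 154 TPM, -0.66 from ad libitum HFSCs (adjusted p = 0.305). The pseudogene Ccnd3-ps was listed at 0 in every group, and Bysl, which overlaps the end of Ccnd3 on the opposite strand, had means of 2.98 to 16.7 TPM.

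Shares within a library do not depend on how libraries are scaled. Of the summed D-type cyclin TPM in the ad libitum HFSC libraries, cyclin D2 transcripts made up 55.2%, 41% and 47.1%. Their share was 36.1%, 39.6% and 30.1% in the 24 h libraries and 29.5%, 26.3% and 32.6% in the 48 h libraries, so that all 6 fasted libraries lay below the ad libitum ones. The share of cyclin D3 was 46.4% ± 7.89 (SD, n = 3) ad libitum and 67.9% ± 2.93 at 48 h. In EpiSCs cyclin D2 held 91.3% ± 0.388 (SD, n = 2). In the long-term experiment the share of cyclin D2 was 63.5% ± 5.31 under alternate-day fasting and 73.1% ± 1.6 ad libitum (n = 2 each), the groups again not overlapping.

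The summed TPM of the inhibitors over that of the D-type cyclins was 0.418 ± 0.0909 (SD, n = 3) with ad libitum feeding, 1.16 ± 0.189 at 24 h and 1.54 ± 0.394 at 48 h. No ad libitum library, at most 0.521, reached the lowest fasted one, 0.947. In EpiSCs the ratio was 0.623 ± 0.112 (SD, n = 2), and both sums were larger there, at 2035 TPM of D-type cyclins and 1258 TPM of inhibitors. It was 3.25 ± 0.8 under alternate-day fasting, 5.94 ± 1.67 in long-term ad libitum and 4.66 ± 1.38 in telogen libraries. Cdkn1a supplied a mean of 68.4% of the inhibitor TPM with ad libitum feeding, 79.8% at 24 h, 75.5% at 48 h and 89.1% to 93% in the 4 other groups. Messenger RNA ratios of this kind do not measure the ratio of the proteins.

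**Figure D3:**
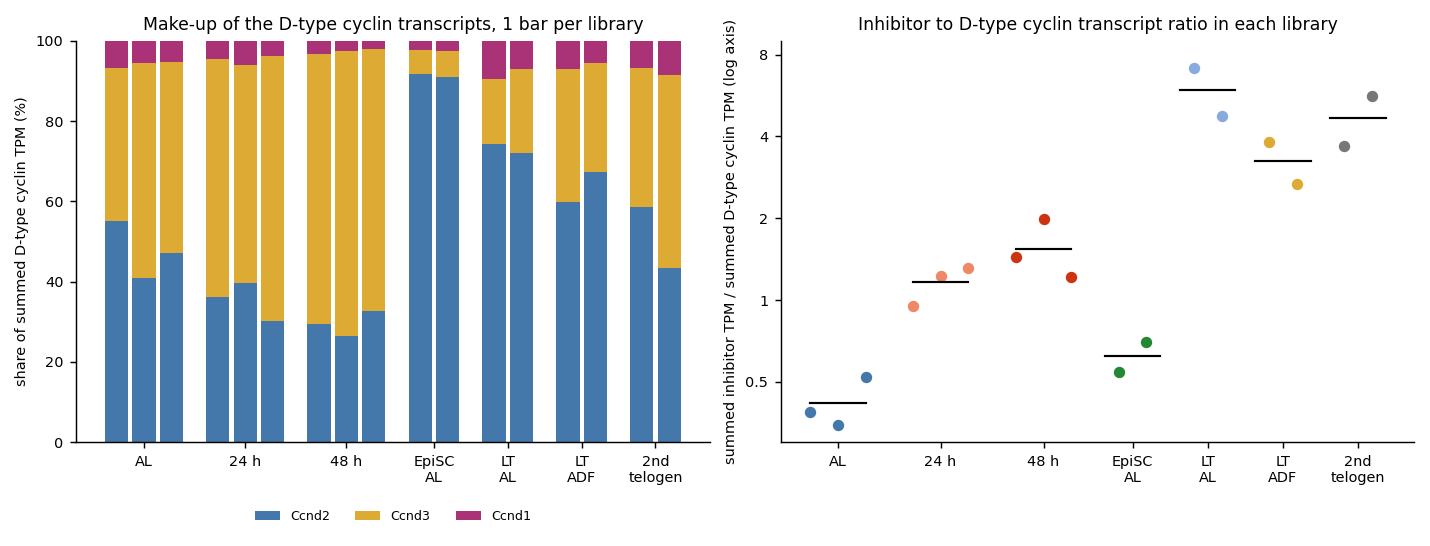
Left, the share in percent of the summed D-type cyclin TPM held by each cyclin, 1 bar per library. Right, summed inhibitor TPM over summed D-type cyclin TPM in each library on a log axis, with a bar at the group mean. The blue Ccnd2 share shrinks from ad libitum to 48 h and fills 91.3% of the bars of EpiSCs, and the ratio is lowest in ad libitum HFSCs.

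The partners and targets of the members were read from lists of other genes, chosen with earlier results of these data known. After 24 h and 48 h of fasting none of the 7 CDK and RB family genes was called (1 and 3 at an unadjusted p under 0.05). After scaling 1 was lower at each time (4.9% of all genes at 48 h). Of 6 tested E2F and DP factors 1 was higher at each time, Tfdp2, an E2F partner, with log2 fold changes of 1.92 (adjusted p = 0.0148) and 2.56 (adjusted p = 7.14e-04). Of the 5 cyclins of types E, A and B, none was called at 24 h (0 at an unadjusted p under 0.05) and at 48 h Ccne2 was higher (1.63, adjusted p = 0.0313; after scaling 1.24, adjusted p = 0.0603), although the list's median was -0.81 against 0.42 for all genes. Of 14 tested replication and mitosis genes, Rrm2, a subunit of ribonucleotide reductase, was higher at 24 h (2.20) and 48 h (2.68). The helicase gene Mcm2 was lower at 24 h (-2.20), and at 48 h Mcm7 was higher (1.51) and Mcm5 lower (-1.46). The median of this list was -0.05 at 24 h, against -0.02 for all genes. At 48 h it was 0.04 against 0.42, and after scaling -0.36 against 0.005. Beside the counts of these lists, 3.07% of all genes were called at 24 h and 15.3% at 48 h.

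Targets of p53 other than Cdkn1a included 3 higher of 14 tested at 24 h (1.47% of all genes were higher) and 7 at 48 h (13.3%), and none lower. The pro-apoptotic gene Bbc3 changed by 1.99 and 2.83, Trp53inp1 by 1.83 and 2.93 and the anti-proliferative gene Btg2 by 1.10 and 1.71. After scaling 4 of 14 were higher at each time, beside 5.42% of all genes at 48 h. The share of all genes at 24 h after scaling is not reported here. The list's median at 48 h was 1.08 on the deposited values and 0.62 after scaling, against 0.42 and 0.00 for all genes. Among 20 tested regulators of member transcription, Cebpd, a stress-responsive factor, was higher at 24 h (2.35, adjusted p = 2.11e-04) and 48 h (2.80, adjusted p = 7.97e-06). At 48 h 7 of the 20 were higher (13.3% of all genes) and none lower, including Myc (1.65) and Foxo3 (1.49, not called after scaling). After scaling 2 were higher (5.42% of all genes) and 1 lower (4.9%) at 48 h. Of 10 genes for turnover of the member proteins none was called at 24 h (2 at an unadjusted p under 0.05) and 2 at 48 h, the ubiquitin ligase parts Ddb1 (1.37) and Cul1 (1.10). After scaling none of them was higher and 1 of the 10 was lower at 48 h (4.9% of all genes). Between 48 h and 24 h none of the 7 lists had a called gene, with 0 to 5 genes a list at an unadjusted p under 0.05.

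Of the 7 genes named from these lists at 24 h, Cebpd and Rrm2 were called without any 1 library. Of the 13 named at 48 h, 8 were: Tfdp2, Rrm2, Mcm7, Bbc3, Trp53inp1, Btg2, Cebpd and Myc. The other 5 at 48 h lost the call without at least 1 library, with adjusted p of up to 0.192.

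In EpiSCs against HFSCs, where 31.5% of all genes were called higher, the called genes were 3 of 7 CDK and RB family genes, 4 of 9 tested E2F and DP factors, 4 of 5 E, A and B cyclins and 12 of 17 replication and mitosis genes, all higher. The largest changes were in Cdk1 (3.01), Cdk6 (2.07) and Cdk2 (1.63), E2f1 (2.56), E2f2 (1.81) and Tfdp1 (1.46), Ccnb2 (2.23), Ccnb1 (1.78) and Ccne1 (1.58), and Mcm2 (2.88), Mcm3 (2.78) and Birc5 (2.74). The list medians ran from 0.97 to 1.84 against 0.50 for all genes, and after scaling 3, 3, 1 and 8 genes of the 4 lists were higher (17.7% of all genes), Ccnb1, Ccne1 and Birc5 no longer among them. Of 15 p53 targets 8 were higher and 1 lower, led by Bbc3 (3.27), Plk2 (2.95) and Eda2r, which was listed at 0 in every ad libitum HFSC library and at a mean of 8.35 TPM in EpiSCs. Of 21 regulators 10 were higher and 5 lower, led by Cebpb (6.83), Myc (3.61) and Cebpa (3.58). Of 11 turnover genes 5 were higher, led by Ddb1 (2.30), Dtl (2.25) and Fbxo31 (1.61, not called after scaling). Of all genes 9.1% were lower. After scaling 5 p53 targets were higher and 2 lower, 8 regulators higher and 5 lower, and 2 turnover genes higher and 1 lower. The shares of all genes were then 17.7% higher and 14.7% lower. Without any 1 library 7 of the 21 genes named in this comparison were called, namely Cebpa, Cebpb, Myc, Mcm2, Mcm3, Plk2 and Eda2r. The 4 proliferation markers, all of them genes of the replication and mitosis list, summed to 56.5 to 73.7 TPM in EpiSCs and 2.1 to 29.6 TPM in ad libitum HFSCs. The part of these markers in the members' differences was not tested.

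In telogen against ad libitum HFSCs the higher Cdkn1a stood beside 4 of 14 other p53 targets called higher, against 5.01% of all genes, led by Gadd45a (3.60), Bbc3 (2.74) and Plk2 (2.37), and 6 of 21 regulators, led by Cebpb (7.82), Myc (3.14) and Smad4 (2.12). Cebpb was at a mean of 843 TPM in telogen and 2.83 TPM in ad libitum libraries 2 and 3. Of 15 replication and mitosis genes only Pcna was called (1.12), and not after scaling (1.13, adjusted p = 0.0646), and no CDK, RB, E2F, DP, turnover or E, A or B cyclin gene was called (0 or 1 a list at an unadjusted p under 0.05), except 1 cyclin higher after scaling. Of the 7 genes named here, only Cebpb was called without any 1 library. The ad libitum values of the marker lists that follow are over all 3 libraries, while the tests used libraries 2 and 3. Immune markers summed to 46.3 to 49.3 TPM in telogen and 6.38 to 11.2 TPM in ad libitum HFSCs, and sebocyte markers to 167 to 173 TPM and 47.8 to 75.1 TPM. Most of the immune sum was Cd74 (means of 34 and 6.12 TPM) and most of the sebocyte sum Mgst1 (161 and 50.6 TPM). Of the other sebocyte markers Cidea was lower in telogen (2.81 and 5.03 TPM), and Fasn (5.76 and 5.38 TPM) and Scd3 (0.444 and 0.396 TPM) were near equal. Fibroblast markers summed to 37.8 to 42.6 TPM and 10.8 to 22.7 TPM, and markers of EpiSCs and the epidermis between follicles to 9328 to 11646 TPM and 5645 to 8426 TPM. In the fibroblast list Dcn differed most (means of 20 and 2.73 TPM), and only Col1a1 was lower in telogen (8.7 and 9.45 TPM). In the epidermal list Krt14 (6235 and 2376 TPM) and Thbs1 (153 and 11 TPM) had higher means in telogen. The means of Krt5 (4022 and 4212 TPM), Krt10 (67.8 and 149 TPM), Krt1 (9.08 and 18.8 TPM) and Ly6a (1 and 3.52 TPM) were lower there. The part of these lists in the differences was not tested.

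Under long-term alternate-day fasting no gene of the 7 lists was called, in a comparison where limma called 1 gene of 12162. Of the 5 E, A and B cyclins 4, and of the 18 replication and mitosis genes 11, were higher at an unadjusted p under 0.05, as were 9.05% of all genes, with list medians of 1.71 and 1.28 against 0.09 for all genes. The proliferation markers, all of them genes of the replication and mitosis list, summed to 182 to 219 TPM under alternate-day fasting and 37.8 to 42.2 TPM ad libitum. The summed immune markers moved the other way, at 62.8 to 113 TPM under fasting and 135 to 190 TPM ad libitum. Most of that sum was Cd74 (means of 68.1 and 131 TPM) and H2-Aa (12.7 and 21.4 TPM). Cd207 was also lower under fasting (1.48 and 5.13 TPM), while Lyz2 was higher (5.18 and 4.1 TPM). The part of either marker list in the lower Cdkn1a and Cdkn1c and the higher Cdkn2c and Ccnd3 values of the fasted libraries was not tested.

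**Figure D4:**
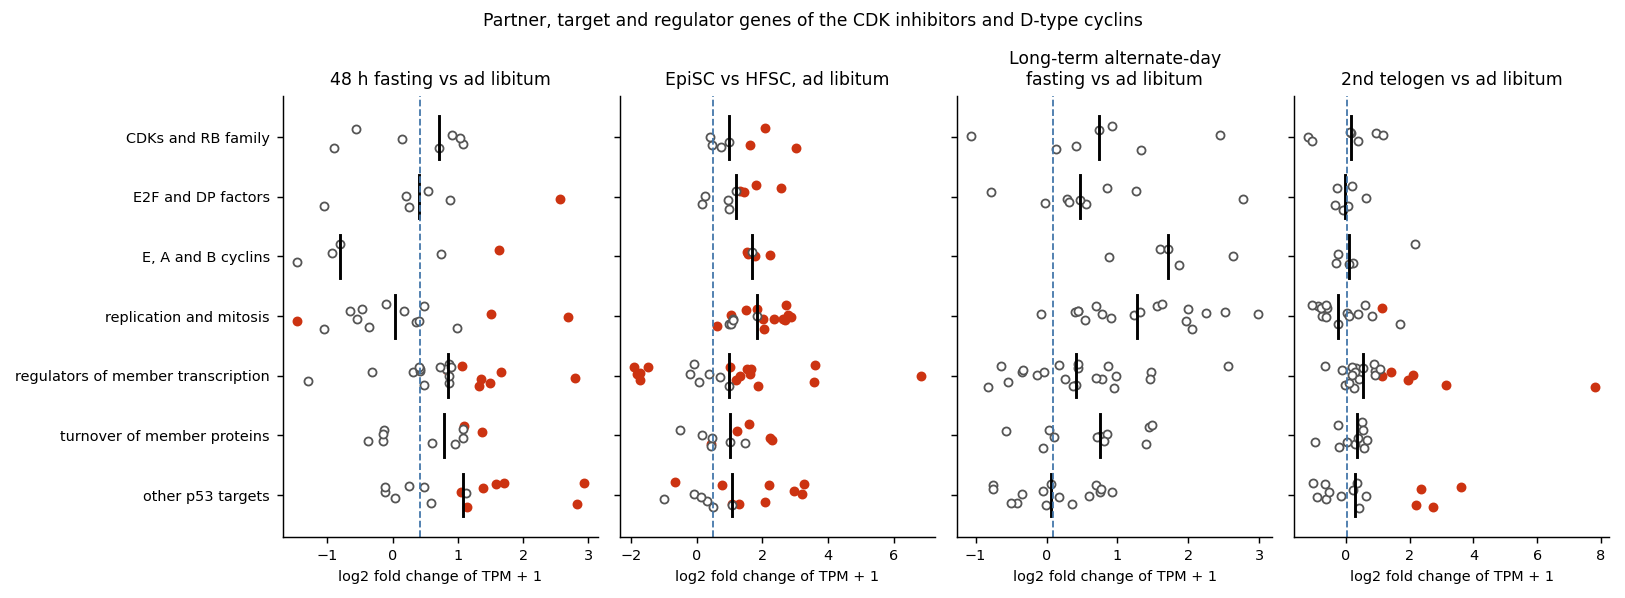
Log2 fold change of TPM + 1 (horizontal axis) of the tested genes of 7 lists in 4 comparisons, 1 point per gene, filled where called at an adjusted p under 0.05, with a bar at the list median and a dashed line at the median of all tested genes. In EpiSCs 12 of 17 replication and mitosis genes are filled, and in the long-term comparison their median is 1.28 with no gene filled.

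Over the 9 libraries of the short HFSC experiment, the genes whose log2(TPM + 1) correlated most with each called member, out of 11524, were taken as most alike, a description that includes the shared effect of group and composition. For Cdkn1a these were Phf21a (Pearson r = 0.981), the glucocorticoid-induced factor gene Klf15 (r = 0.981), whose mean went from 39.7 to 219 and 607 TPM, and the Polycomb gene Cbx7 (r = 0.974). For Cdkn1b they were Pacsin3, Mcoln1 and Fbxl6 (r = 0.987 to 0.99), for Cdkn1c Aldh1l1 (r = 0.986) and Endod1 (r = 0.969), for Cdkn2c Coq8a, Cd59a and Sos2 (r = 0.959 to 0.97), and for Cdkn2d Armc10, Hnrnpf and Ginm1 (r = 0.981 to 0.991). For Ccnd1 they were Gstp1, Fat1 and Ak1 (r = 0.925 to 0.953), of which Gstp1 went from a mean of 301 TPM ad libitum to 141 and 130 TPM.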

How the data were processed

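The 3 tables held transcript abundances as TPM for the same gene symbols, computed by the authors. Per the submitters' processing notes, the mm10 build, DESeq2 1.36.0 and Salmon 1.4.0 were used, and the notes also name fastp 0.23.1 (short fasting and EpiSC libraries) or Trimmomatic 0.39 (the other libraries). Per the labels' protocols, RNA went through a column kit, full-length mRNA amplification and a transposase library kit. Each library summed to 1000000 TPM, and because TPM keep no read depth, no counting interval is given. TPM divides by transcript length, so levels can be compared between genes.

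Tests were fitted with limma 3.58.1 in R 4.3.3 (moderated tests with a mean-variance trend, two-sided) on log2(TPM + 1) for genes with a mean of at least 1 TPM, with Benjamini-Hochberg adjustment over all genes tested. On this scale a low gene's fold change comes out too small. Ad libitum, 24 h and 48 h HFSCs shared 1 fit, and the other comparisons used the libraries of their own groups within 1 table. Alternatives were another pseudocount (0.1), other filters (none, 5 TPM), median-ratio scaling, removal of mitochondrial and ribosomal protein genes, the replicate number as a block, fits of only the groups compared and leaving out each library.

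All 10 members were named. From each list of other genes, the 3 called genes with the largest absolute change were named, and for each member called at 24 h or 48 h the 3 genes with the highest correlation, of which 1 is not reported here. Members and lists were chosen with earlier results of these data known. Gene positions came from GENCODE M21, and promoters from RefSeq GRCm38.p6, which matched 7 of the 10 members. The telogen columns are numbered otherwise than the sample titles and were used as libraries of their group without a number.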

Additional observations from a re-analysis of the deposited data

Results flagged for a closer look

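Cdkn1a values lay in opposite directions from their ad libitum groups in the short and the long-term experiment. Every 24 h and 48 h library lay above every ad libitum library of its table, and both alternate-day fasting libraries lay below both long-term ad libitum libraries. Of all genes, 7.77% lay higher without overlap at 24 h and 35.5% at 48 h, and 21% lay lower in the long-term comparison. The log2 change at 24 h exceeded the long-term one by 1.89, and that at 48 h exceeded it by 2.70. Cdkn1c did the same at 48 h, where its change exceeded the long-term one by 2.84, while its 24 h libraries overlapped the ad libitum ones. These differences were not tested, since the experiments stand in separately processed tables. Neither long-term change passed limma's test (adjusted p = 0.329 and 0.258). After scaling the 48 h changes of Cdkn1a and Cdkn1c were 1.57 and 1.39 (limma adjusted p = 0.00211 and 0.127), and the long-term ones -0.72 and -1.05. The experiments also differ in the length and pattern of the fast and in the time of sampling. The alternate-day libraries were taken on the day following a fast, the others after 24 h or 48 h of fasting. The read processing tools named and the mitochondrial share of the ad libitum libraries (30.7% and 3.88% of TPM) differ as well. These differences cannot be told apart.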

How the results depend on the processing

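Of 714 values recomputed over the tested members, comparisons and alternatives, 611 kept direction and call, 68 lost the call, 10 gained one and 25 turned in direction, all 25 in changes that were not called. Only a called change can lose its call, and most of the 714 values belong to changes that were not called. The 68 set against 714 therefore understate how often calls were lost. Named genes of the other lists turned in direction 0 times. The cause of a changed call was not tested, except that fewer libraries and more or fewer genes enter some fits by construction.

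With no filter on low values, members and genes called were 0 and 61 at 24 h, 1 and 918 at 48 h, and 0 and 4 in telogen, with 4 members called in EpiSCs and 0 genes both between 48 h and 24 h and in the long-term comparison. A filter at 5 TPM gave 1 member (Cdkn1c, adjusted p = 0.0466) and 31 genes between 48 h and 24 h, and a pseudocount of 0.1 gave 1 gene there. Median-ratio scaling gave 561 genes at 24 h, 3 members at 48 h and 0 genes between 48 h and 24 h. Without mitochondrial and ribosomal protein genes there were 541 genes at 24 h, 3 members and 1158 genes at 48 h, 0 genes between 48 h and 24 h and 4 members in EpiSCs. Fits of only the 2 groups compared gave 179 genes at 24 h, 2880 at 48 h and 2 between them.

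Scaling turned 48 h against 24 h to -0.11 for Cdkn2c and -0.24 for Ccnd2, and long-term Ccnd2 to -0.023. Removing mitochondrial and ribosomal protein genes turned 48 h against 24 h to -0.094 for Ccnd2, long-term Cdkn2b to 0.00020, and in telogen Cdkn1b to -0.32, Cdkn2c to -0.27 and Ccnd1 to -0.26.

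Leaving out 1 library gave 99 to 489 genes at 24 h, 744 to 2448 genes and 1 to 6 members at 48 h, 0 to 345 genes and 0 to 2 members between them, 1253 to 5610 genes and 2 to 7 members in EpiSCs, 0 to 16 genes in the long-term comparison and 29 to 553 genes and 1 to 2 members in telogen. Changes that turned ranged at 24 h from -0.73 to 0.093 (Cdkn2b), -0.15 to 0.62 (Cdkn2d) and -0.26 to 0.13 (Ccnd3), and between 48 h and 24 h from -0.018 to 0.43 (Ccnd2). In the long-term comparison they ranged from -0.53 to 0.76 (Cdkn1b), -0.36 to 0.33 (Cdkn2b) and -0.20 to 0.28 (Ccnd2). In telogen they ranged from -0.20 to 0.33 (Cdkn1b), -0.27 to 0.43 (Cdkn2c), -0.19 to 0.46 (Ccnd1) and -0.60 to 0.29 (Ccnd2). Where an arm was left with 1 library, that library is assumed to vary like the other group.

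Same-numbered libraries of the short experiment had correlations of their deviations from -0.132 to 0.0482, and 2 of 9 libraries correlated best with their own number. Deviations from the mean of a group of 3 are tied to each other by construction. These values therefore cannot show whether the replicate numbers pair the samples. With the number as a block 19 genes were called between 48 h and 24 h and 284 in the long-term comparison, with 0 members in both. The block took the 48 h calls of Cdkn2c (adjusted p = 0.0674) and Ccnd1 (0.0554) and the EpiSC call of Cdkn2b (0.0572) past the threshold. With EpiSCs numbered as in their descriptions, an alternative added after seeing the data, Cdkn2c lost its call (0.0664) and Ccnd1 gained one (0.0289). In telogen, where column numbers differ from those in the titles, a block by the column numbers, also added after seeing the data, gave 1287 genes and the same 2 members. Same-numbered columns there had a correlation of 0.105. With 2 libraries a group both pairs give the same value by construction, so they are not independent.

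With 2 libraries a group and no read depth, a change that missed the threshold is not shown to be absent.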
